A study of Mus musculus with 2 samples.

Results

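Cytoplasmic ribosomal protein genes encode the protein part of the ribosome, and 85 of the 32531 gene symbols counted in the series belonged to them. They were taken by symbol alone (Rps and Rpl names, Rpsa and the stalk genes Rplp0, Rplp1 and Rplp2), and no symbol had to be dropped as Y-linked. Mitochondrial ribosomal proteins and symbols that name a pseudogene were left out. Rps4l, which is annotated as a pseudogene, fits the name rule and is among the 85. The study measured RNA by TRAP-seq, a method in which ribosomes that carry a tagged protein are pulled down and the RNA bound to them is sequenced. The tag was EGFP on ribosomal protein L10a, the product of Rpl10a, in mice of the Stard5-TRAP line JX5852, and the RNA came from ventral striatum pulled down with monoclonal anti-EGFP antibodies. The only group was control mice without treatment, with 2 libraries, replicate 1 and replicate 2, and all animals carried the transgene. No input RNA and no other line was analysed here, so neither enrichment over the tissue nor an effect of a condition could be computed. Stard5 regulatory sequence sets which cells carry the tag, and the labels give neither age nor sex. They are also silent on whether each replicate was its own animal or pool, and the spread between the libraries may therefore be technical.

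A ribosome has a small subunit, which decodes the messenger RNA, and a large subunit, which joins amino acids and releases the chain through an exit tunnel. Most of its proteins are present in a single copy per ribosome, and in mammals most are encoded by a single active gene beside many processed pseudogenes. Their messenger RNAs begin with a run of pyrimidines (the 5′ terminal oligopyrimidine or TOP tract), through which mTOR and the RNA-binding protein LARP1 set how many of them are on ribosomes.

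Pyrimidine-rich CTTTC was frequent around the start sites of these genes. Of 85 symbols, 64 had an entry in the RefSeq promoter table (GRCm38.p6), and among 59 detected genes with an entry CTTTC stood within 50 bases of the start on the coding strand in 30, or 50.8%, against 12.01% of 9032 other detected genes. On either strand the shares were 62.7% and 21.8%. The longer CTCTTTC, which contains CTTTC, was found on the coding strand in 18.6% of the ribosomal protein genes and 1.52% of the others. TATAAA was found in 8.47% (5 of 59) and 2.09%. CTTTC was not alone, since each of the 12 motifs searched was more frequent in the members on that strand. Among these, CTTCC was in 47.5% against 25.5%, and TTCCG in 35.6% against 17.8%. On either strand CTTCC was in 67.8% and 46.3%. The windows below run from 30 bases before to 25 bases after the annotated start, 5′ to 3′ on the gene's strand, with CTTTC in capitals. Rpl4, Rps15a and Rpl5 are shown because they carry the element and stand for the highest level per kilobase of exon, a high level per kilobase of coding sequence and a low ratio between the libraries, Rplp2 because it had the largest ratio of the stalk genes, Rpl35 because it has the element repeated and a low level, and Rpl41, Rps13 and Rpl9 because they lack it in this window and had the highest level per kilobase of coding sequence, a large ratio and the only ratio below 0.
Rpl4 at chr9:64173357-64173411, plus strand: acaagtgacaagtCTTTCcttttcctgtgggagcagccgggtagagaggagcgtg
Rps15a at chr7:118116123-118116177, minus strand: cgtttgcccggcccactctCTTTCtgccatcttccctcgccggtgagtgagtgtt
Rpl5 at chr5:107900498-107900552, plus strand: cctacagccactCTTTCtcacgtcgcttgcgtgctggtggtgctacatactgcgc
Rplp2 at chr7:141447621-141447675, plus strand: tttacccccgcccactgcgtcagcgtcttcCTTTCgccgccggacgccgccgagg
Rpl35 at chr2:39005107-39005161, minus strand: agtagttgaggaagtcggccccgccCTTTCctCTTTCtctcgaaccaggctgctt
Rpl41 at chr10:128549144-128549198, minus strand: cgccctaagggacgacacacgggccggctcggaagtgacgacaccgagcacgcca
Rps13 at chr7:116334166-116334220, minus strand: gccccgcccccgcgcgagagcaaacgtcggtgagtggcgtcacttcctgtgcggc
Rpl9 at chr5:65391407-65391461, minus strand: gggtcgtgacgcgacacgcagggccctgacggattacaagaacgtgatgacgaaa
A match of letters is a description of the window and not evidence of a working element. The 30 genes with CTTTC had a median of 102.9 CPM per kilobase of coding sequence and the 29 without it 92.3, and their median log2 ratios between the libraries were 0.82 and 0.84. Genes with and without the element thus had similar medians of both measures, a difference that was not tested.

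Replicate 1 held 25830282 reads assigned to genes, and replicate 2 held 29574781. Levels are in CPM, reads per 1000000 reads in genes, and the 12374 genes with at least 1 CPM in each library are called detected. Multiply aligned reads, which are listed apart from the genes, were 27.9% of the total in replicate 1 and 13.6% of it in replicate 2. All 13 listed markers of striatal spiny neurons, the main neuron type of this region, were detected and had a summed level of 10356 CPM in replicate 1 against 8128 CPM in replicate 2. All 10 astrocyte markers were also detected, at a sum of 938 CPM in replicate 1 and 3083 CPM in replicate 2, and the 10 oligodendrocyte markers at 1016 CPM in replicate 1 against 1564 CPM in replicate 2. No listed marker of these cell types was at 0 reads. The microglia markers had a sum of 217 CPM in replicate 1 and 162 CPM in replicate 2, and the endothelial and mural markers 49.5 CPM in replicate 1 and 69.0 CPM in replicate 2, with 8 of 10 detected. Astrocyte and oligodendrocyte markers were thus lower in replicate 1. In pulled-down RNA, differences in the cells, in RNA per cell and in the pull-down itself cannot be told apart.

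Of the 85 genes, 80 were detected: all 33 of the small subunit, 44 of 49 of the large subunit and all 3 of the stalk. The other 5, Rpl26, Rpl36al, Rpl10l, Rpl39l and Rpl3l, were at 0 reads in both libraries, which allows at most 0.143 CPM in replicate 1 and 0.125 CPM in replicate 2 by the exact Poisson 95% interval. Rpl10l, Rpl39l, Rpl3l and Rpl36al are copies of other members, the first pair known from testis and Rpl3l from heart and skeletal muscle. Rpl26 is different, since it has no paralog in the list and encodes a large subunit protein (ENSMUSG00000060938.14, GRCm38 chr11:68901583-68906989, plus strand). In the annotation, 61.0% of its 50-base exon windows also occur in 12 other genes, all pseudogenes. Rpl36al had a share of 63.3%, in 3 other genes, 2 of them pseudogenes. Detected members had shares from 0 to 98.6%, and the reason for the 0 reads of Rpl26 and of Rpl36al was not tested. Reads of such near-identical copies may be split or left uncounted, so the level of every member with repeated sequence is uncertain to that extent.

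The ribosomal protein genes took 152151 reads in replicate 1 and 103818 reads in replicate 2. In replicate 1 that is 0.589% of reads in genes, with a 95% Clopper-Pearson interval of 0.586 to 0.592, and in replicate 2 0.351%, with an interval of 0.349 to 0.353, or 0.470% ± 0.168 (SD, n = 2). Detected members had a median of 58.9 CPM in replicate 1 and 32.2 CPM in replicate 2, and all detected genes had 23.2 CPM in replicate 1 against 22.2 CPM in replicate 2. The members ranged from 5.50 to 472.6 CPM in replicate 1 and from 1.39 to 317.5 CPM in replicate 2. In both libraries, 74 members reached 10 CPM, 25 reached 50 CPM and 3 reached 100 CPM. They are short genes, with a median longest coding sequence of 468 bases against 1476 for all detected genes, so levels between genes were set side by side per kilobase. Per kilobase of coding sequence the medians were 129.5 CPM in replicate 1 and 73.0 CPM in replicate 2, and all detected genes had 17.7 CPM in replicate 1 and 17.3 CPM in replicate 2. By the mean of both libraries, 77 of the 79 members with a coding sequence lay above the median of all genes. Per kilobase of exon, with all annotated exons of a gene merged, the medians over both libraries were 24.4 CPM for the members and 5.31 CPM for all genes.

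**Figure D1:**
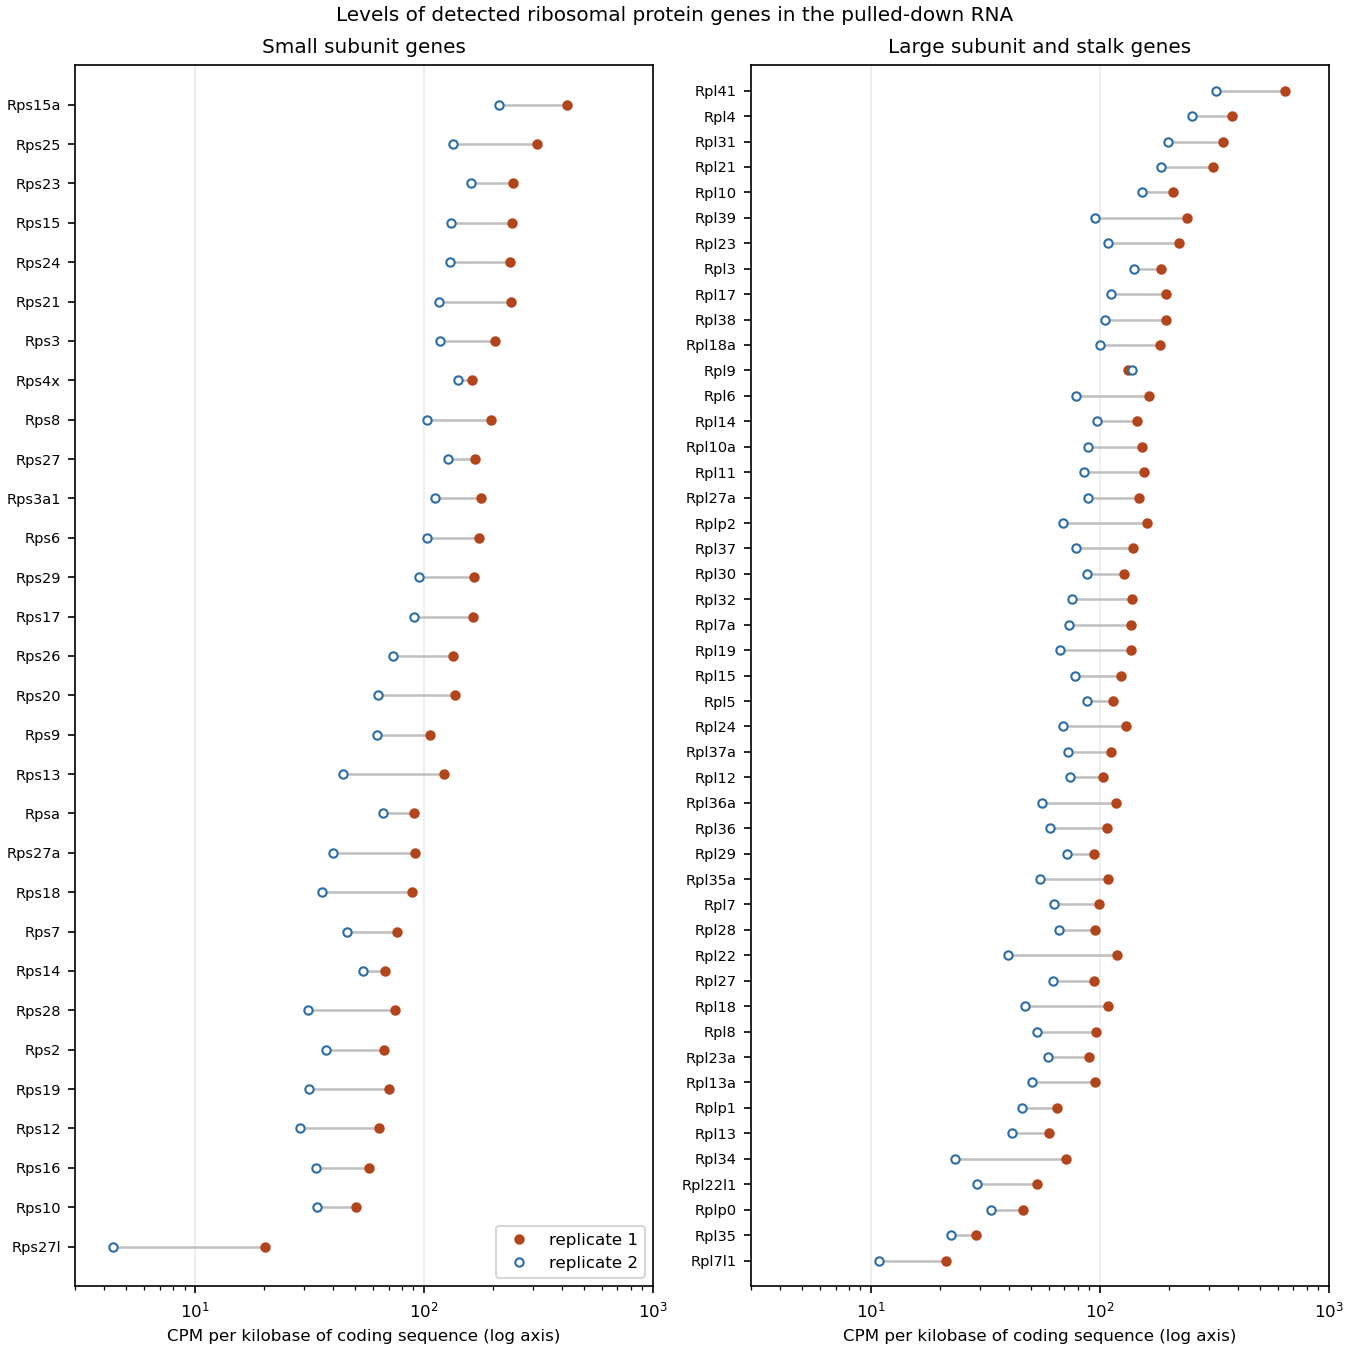
Level of 77 detected ribosomal protein genes with a coding sequence in CPM per kilobase of coding sequence (log axis), small subunit genes on the left and large subunit and stalk genes on the right, ordered by mean level. Filled points are replicate 1, open points replicate 2, and the lines join them; replicate 1 lies to the right for 76 of these 77 genes.

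Rpl10a, the tagged protein's own gene and a component of the large subunit (ENSMUSG00000037805.15, GRCm38 chr17:28328471-28331033, plus strand), had 99.5 CPM in replicate 1 and 57.5 CPM in replicate 2, a mean of 78.5 ± 29.7 CPM (SD, n = 2). It was number 29 by level per kilobase of coding sequence among the 79, at 120.6 CPM. Its log2 ratio between the libraries, 0.77, lay near the median of the members (0.80). The counts do not tell transcripts of the transgene from those of the gene itself, and 88.1% of its 50-base windows occur in 5 other annotated genes, all pseudogenes.

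In the large subunit, Rpl4, whose protein lines the exit tunnel, had 472.6 CPM in replicate 1 and 317.5 CPM in replicate 2 and was number 408 of all symbols by mean CPM. Rpl3, a component of the peptidyl transferase region, had 222.4 CPM in replicate 1 and 169.9 CPM in replicate 2, and Rpl10, which joins the large subunit late, had 133.5 CPM in replicate 1 and 98.5 CPM in replicate 2. These 3 genes were higher in replicate 1, each by less than 2-fold. Per kilobase of exon, the highest members were Rpl4 (mean 196.8 CPM), Rps15 (129.2), Rps3a1 (117.2), Rps4x (73.2), Rpl36 (69.1) and Rps23 (68.9), and the lowest detected were Rps19 (6.94), Rps28 (6.37), Rpl34 (6.31), Rps4l (5.17), Rps27l (4.74) and Rpl7l1 (3.40). Per kilobase of coding sequence, Rpl41, the shortest ribosomal protein, came first at 641.6 CPM in replicate 1 against 320.5 CPM in replicate 2. Rps15a came next, with 420.2 CPM in replicate 1 and 211.9 CPM in replicate 2 per kilobase of coding sequence, followed by Rpl4. The order depends on the length used: Rps15a has 6270 merged exon bases but a coding sequence of 390 bases, and was number 48 per kilobase of exon. Only 1 gene, Rpl4, was among the first 6 on both scales, and Spearman's rho between them was 0.67 across 79 genes, a description in which both orders share the same reads. Rpl41 and Rps15a are named here after their values were seen. The order was alike in the libraries, with rho 0.93 per kilobase of coding sequence and 0.97 per kilobase of exon.

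Among detected members other than the paralogs, the highest level was 18.8 times the lowest per kilobase of coding sequence and 31.2 times per kilobase of exon, so these messages were counted at far from equal levels. Small and large subunit genes were at similar levels. Small subunit genes had a median of 135.0 CPM per kilobase of coding sequence in replicate 1 and 70.0 CPM in replicate 2, and large subunit genes had 128.2 CPM in replicate 1 against 74.9 CPM in replicate 2. The 3 stalk genes had a median of 64.9 CPM in replicate 1 and 45.9 CPM in replicate 2 on that scale. Per kilobase of exon they were not lower than the small subunit genes, with a median of 26.7 CPM in replicate 1 and 19.2 CPM in replicate 2, beside 26.1 CPM in replicate 1 and 16.4 CPM in replicate 2. On the log2 scale the large minus small difference of medians was 0.21 per kilobase of exon, but -0.00086 per kilobase of coding sequence, so its sign turned and its size was near 0 with coding length.

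The stalk recruits translation factors to the ribosome. Rplp0, which anchors it, had 44.0 CPM in replicate 1 and 31.9 CPM in replicate 2. Its arms are encoded by Rplp1, with 22.2 CPM in replicate 1 and 15.7 CPM in replicate 2, and by Rplp2, with 55.4 CPM in replicate 1 and 23.8 CPM in replicate 2. Rpl12, at the base of the stalk, had 51.3 CPM in replicate 1 and 36.6 CPM in replicate 2. Rplp2 had the largest log2 ratio of these 4, at 1.19 against 0.44 to 0.47 for the others. The proteins of Rpl5 and Rpl11 carry the 5S ribosomal RNA. Rpl5 had 101.4 CPM in replicate 1 and 78.1 CPM in replicate 2, a log2 ratio of 0.35. Rpl11 had 83.0 CPM in replicate 1 and 45.7 CPM in replicate 2, a log2 ratio of 0.84. Exons of other genes overlap 26.7% of the exon bases of Rpl5, so with an unknown strand setting some of its reads may belong to them or be left uncounted. The same limit holds for other members, among them Rpl35 (66.2%) and Rpl23a (62.3%). Rps27a, which encodes a ubiquitin joined to a small subunit protein, had 42.6 CPM in replicate 1 and 18.8 CPM in replicate 2, a log2 ratio of 1.15. Ribosomal proteins under other symbols, which the name rule does not take, include Fau (52.5 CPM in replicate 1, 26.6 in replicate 2) and Gnb2l1 (46.1 in replicate 1, 41.5 in replicate 2). Fau encodes a fusion with a ubiquitin-like protein, and Gnb2l1 encodes the scaffold protein RACK1. Neither of them passed the 2-fold test described next.

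The libraries were compared gene by gene with a 2-sided exact binomial test of the reads, scaled by TMM, with Benjamini-Hochberg adjustment over all detected genes, and a call needed an adjusted p under 0.05 and at least a 2-fold ratio. With 1 library on each side this test compares 2 libraries of the same group on counting error only, and not conditions. Of the 80 detected members, 20 (25%) were higher in replicate 1, where 7.76% of all genes were, and 0 were higher in replicate 2, where 9.52% were. The 20 were 11 small subunit genes (among them Rps12, Rps13, Rps18, Rps19, Rps20, Rps21, Rps25, Rps27a, Rps27l and Rps28), 8 large subunit genes (Rpl6, Rpl18, Rpl19, Rpl22, Rpl23, Rpl34, Rpl36a and Rpl39) and the stalk gene Rplp2, and their log2 ratios ran from 1.01 to 2.16. Without the fold limit, 78 of 80 members had an adjusted p under 0.05 in the exact binomial test and were higher in replicate 1, where 39.8% of all genes were, and 0 were higher in replicate 2, where 39% were. Rpl9 and Rps4l were the other members. The median log2 ratio of the members was 0.80, or 1.74-fold, with quartiles of 0.55 and 0.98, beside 0.0025 for all detected genes. The members also varied less among themselves than genes in general, with an SD of 0.35 against 0.78. Within 0.5 of their median lay 90% of members, against 54.8% of all genes within 0.5 of theirs. These sets were not matched for level or length. At least 10 CPM in both libraries was reached by 74 of the 80 members but by 7823 of the 12374 genes. The median coding length was 468 bases against 1476, so the smaller spread cannot be assigned to the family as such. A ratio above 0 was found in 79 of 80 members (98.8%) and in 50.3% of all detected genes.

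**Figure D2:**
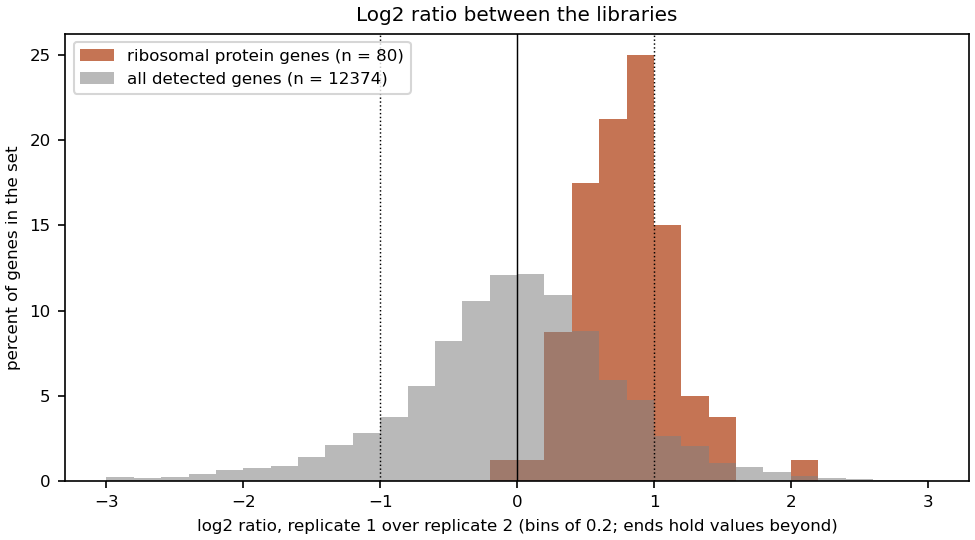
Distribution of the log2 ratio, replicate 1 over replicate 2, for the 80 detected ribosomal protein genes and for all 12374 detected genes, as percent of genes in each set (bins of 0.2). Dotted lines mark a 2-fold ratio in each direction; the ribosomal protein genes form a narrow peak with a median of 0.80.

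The largest ratios were spread over both subunits. Rps27l, a paralog of Rps27 known as a p53 target, had 6.35 CPM in replicate 1 and 1.39 CPM in replicate 2, a log2 ratio of 2.16 (interval 1.67 to 2.70; exact binomial test, adjusted p = 2.4e-21), on only 164 and 41 reads. Rpl34, a large subunit gene, had 25.1 CPM in replicate 1 and 8.22 CPM in replicate 2, a log2 ratio of 1.58 (1.37 to 1.81; exact test, adjusted p = 1.86e-53). Rpl22, which encodes an RNA-binding large subunit protein, had 45.8 CPM in replicate 1 and 15.2 CPM in replicate 2, a log2 ratio of 1.56 (1.41 to 1.73; exact test, adjusted p = 1.17e-94). These 3 were the only members outside the central 95% of all genes' ratios, -1.76 to 1.504. Rps13, of the small subunit, had 55.5 CPM in replicate 1 and 19.98 CPM in replicate 2, a log2 ratio of 1.45. Rpl39, whose small protein sits in the exit tunnel, had 36.7 CPM in replicate 1 and 14.6 CPM in replicate 2, a log2 ratio of 1.30. Rps18, of the small subunit head, had 40.3 CPM in replicate 1 and 16.3 CPM in replicate 2, a log2 ratio of 1.28. At the other end, and named after its value was seen, Rpl9 had 76.4 CPM in replicate 1 and 79.4 CPM in replicate 2, a log2 ratio of -0.08 (-0.17 to 0.01; exact test, adjusted p = 0.0867). It was the only member with a ratio below 0, and 93.3% of its windows occur in other annotated genes. Rps27 (98.6%), Rpl35 (95.1%) and Rpl5 (93.8%) had larger shares, with log2 ratios of 0.37, 0.33 and 0.35. High shares also occurred at large ratios, with 86.7% for Rps18 (log2 ratio 1.28) and 83.0% for Rps13 (1.45). A link between the share and the ratio was not tested. Rps4x, the X-linked small subunit gene, had 128.0 CPM in replicate 1 and 110.7 CPM in replicate 2, a log2 ratio of 0.18 (0.11 to 0.25).

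Of the 8 paralogs, 4 were detected, each below its partner. Rpl22l1 had 19.4 CPM in replicate 1 and 10.6 CPM in replicate 2, and Rpl7l1 had 15.7 CPM in replicate 1 and 8.01 CPM in replicate 2. Rps4l, annotated as a transcribed processed pseudogene, had 5.50 CPM in replicate 1 and 4.26 CPM in replicate 2. Their partners Rpl7 (83.2 CPM in replicate 1, 52.8 in replicate 2) and Rps27 (42.2 in replicate 1, 32.1 in replicate 2) were not called. Rpl22l1 made up 29.8% of the reads of its pair with Rpl22 in replicate 1 (Clopper-Pearson 95% interval 27.6 to 32.1) and 41.1% in replicate 2 (37.6 to 44.7). Rpl7l1 made up 15.9% (14.5 to 17.4) of its pair with Rpl7 in replicate 1 and 13.2% (11.6 to 14.8) in replicate 2. Rps27l made up 13.1% (11.3 to 15.1) of its pair with Rps27 in replicate 1 and 4.14% (2.99 to 5.57) in replicate 2, and Rps4l 4.12% of its pair with Rps4x in replicate 1 and 3.71% in replicate 2. The intervals of the libraries do not overlap for Rpl22l1 and Rps27l, in opposite directions, and they cover counting error only. Pair shares are of reads, without scaling for length. Repeated windows were 98.6% for Rps27 but 22.4% for Rps27l, and multiply aligned reads were 27.9% in replicate 1 and 13.6% in replicate 2. Reads left uncounted may thus differ between the genes of a pair and between the libraries, which was not tested. Rpl3l, Rpl10l, Rpl36al and Rpl39l had 0 reads beside Rpl3, Rpl10, Rpl36a (37.4 CPM in replicate 1 and 17.7 CPM in replicate 2) and Rpl39, which for Rpl3l allows a share of up to 0.0642% in replicate 1 and 0.0734% in replicate 2 (upper Clopper-Pearson 95% limits).

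The ratio between the libraries also moved with coding length, over all genes. Other detected genes with a coding sequence of 300 to under 500 bases had a median log2 ratio of 0.59 (611 genes), those of 750 to under 1500 bases 0.11 (3702 genes) and those of 1500 bases or more -0.17 (5493 genes). The ribosomal protein genes of 300 to under 500 bases had a median of 0.84 (37 genes) and those of 750 to under 1500 bases 0.59 (12 genes). In each of the 4 length classes that held members, their median lay above that of the other genes. Of the other genes of 300 to under 500 bases, 22.3% were called higher in replicate 1, and of the ribosomal protein genes of that length 32.4%. At 750 to under 1500 bases the shares were close, 8.21% of the other genes and 8.33% of the members. By the length of the principal transcript, the shares called higher in replicate 1 were close below 2000 bases, but the members' median log2 ratios were higher. Under 750 bases the shares were 30% of 30 members and 28.2% of other genes, with medians of 0.84 and 0.77. From 750 to under 1000 bases they were 21.7% and 24.7%, with medians of 0.75 and 0.55. From 1000 to under 2000 bases they were 14.3% and 13.9%, with medians of 0.72 and 0.28. From 2000 to under 4000 bases the shares were far apart, 60% of only 5 members and 6.57% of other genes, with medians of 1.09 and 0.032. The 1 member of 4000 bases or more, Rps15a, was not called. With the trend on exon length removed, 9 of 80 members (11.3%) were called higher in replicate 1 beside 5.86% of all genes, and 0 higher in replicate 2 beside 9.79%. With the trend on coding length removed, 3 members (3.75%), Rps27l, Rpl34 and Rpl22, were called higher in replicate 1 beside 5.97% of all genes, and 0 higher in replicate 2 beside 9.48%, so the share of members was below that of all genes. The median ratio was then 0.37 and 0.35. Calls were thus fewer and the median smaller once length was accounted for, while 68 and 69 of 80 members had a ratio above 0 under these settings.

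**Figure D3:**
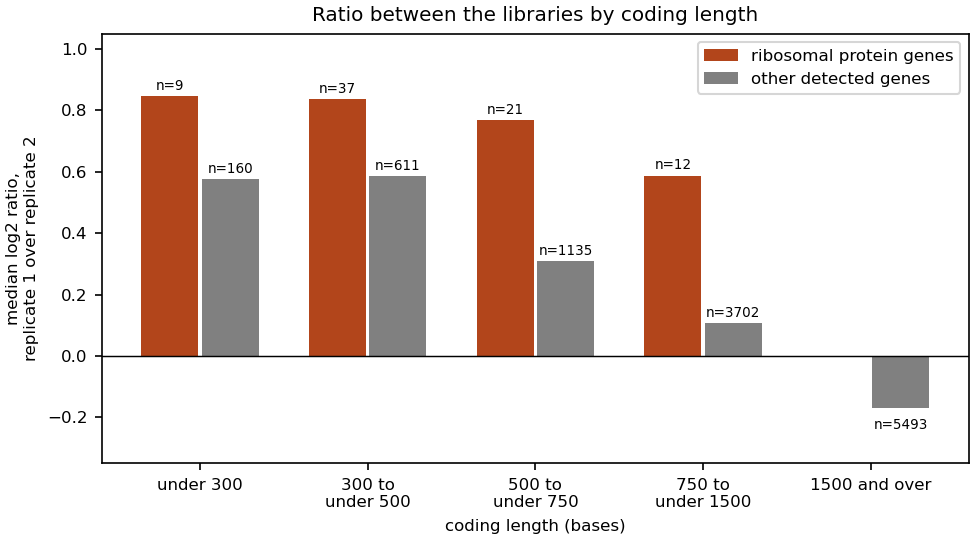
Median log2 ratio, replicate 1 over replicate 2, of ribosomal protein genes and of other detected genes by coding length (bars start at 0; n is the number of genes). The members' bars stand higher in each class that holds members, from 0.85 under 300 bases to 0.59 at 750 to under 1500 bases, and no member is longer.

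Related genes gave values of their own. The other TOP messenger RNAs, which encode translation factors and the like, had a median log2 ratio of 0.32, with 14 of 15 above 0 and 1 of 15 called higher in replicate 1, Eif3e (80.6 CPM in replicate 1, 38.2 CPM in replicate 2), a share near the 7.76% of all genes. The elongation factor gene Eef1a1 had 675.7 CPM in replicate 1 and 553.0 CPM in replicate 2, and Eef2 had 515.8 CPM in replicate 1 and 527.6 CPM in replicate 2. Genes of ribosome biogenesis had a median of 0.27, with 3 of 32 called higher in replicate 1 (Utp14a, Nhp2 and Fbl) and 1 higher in replicate 2 (Riok1). Utp14a, a small subunit assembly factor, had 19.7 CPM in replicate 1 and 6.73 CPM in replicate 2, and the kinase gene Riok1 had 7.55 CPM in replicate 1 against 18.9 CPM in replicate 2. In this list 23 of 32 ratios lay above 0, and over all genes 7.76% were called higher in replicate 1 and 9.52% higher in replicate 2. Mitochondrial ribosomal protein genes, a list chosen after the data were seen, had a median of 0.61. Of the 74 detected, 15 were called higher in replicate 1, beside 7.76% of all genes, and 0 in replicate 2, beside 9.52%. Of other genes with a coding sequence of 300 to under 500 bases, 22.3% were called higher in replicate 1. That share was 13.5% at 500 to under 750 bases and 8.21% at 750 to under 1500 bases. The mitochondrial list spans these classes and was not matched by length. Its largest ratio was 1.70, for Mrpl55, with 19.2 CPM in replicate 1 and 5.82 CPM in replicate 2. Diamond-Blackfan anaemia genes are ribosomal protein genes mutated in that inherited anaemia, and all 15 listed are among the 85 members. Their median of 0.80 is thus no separate result from that of the members. Of the 14 detected, 2 were called higher in replicate 1, Rps28 and Rps19, beside 25% of the detected members and 7.76% of all genes. With the exon length trend removed only Rps19 of these was called, and with the coding length trend removed neither was. Rps28 had 15.5 CPM in replicate 1 and 6.42 CPM in replicate 2, and Rps19 had 44.9 CPM in replicate 1 against 20.1 CPM in replicate 2. The median of each of these 4 lists lay above that of all genes, but so did those of some cell type marker lists. Striatal spiny neuron markers had a median of 0.33, with 11 of 13 above 0. Microglia markers had 0.44, with 8 of 10 above 0, and endothelial and mural markers 0.099, with 4 of 8 detected above 0. The differences between lists were not tested. Astrocyte markers had a median of -1.59 and oligodendrocyte markers -0.74, with 7 and 3 of 10 called higher in replicate 2, and their part in the ratio of the ribosomal protein genes was not tested.

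**Figure D4:**
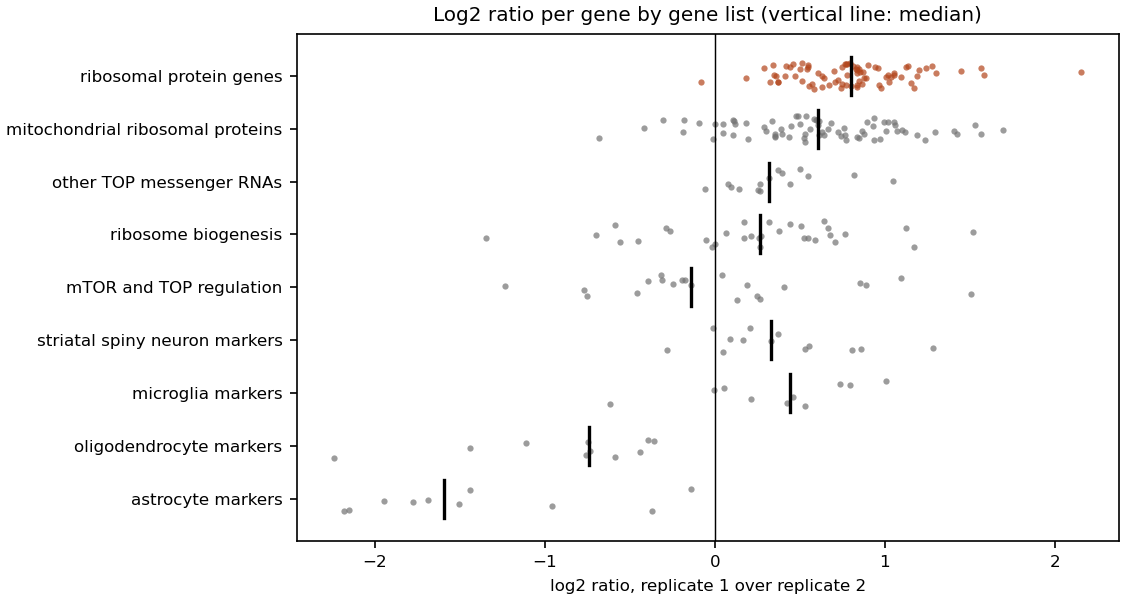
Log2 ratio, replicate 1 over replicate 2, of each detected gene by list (vertical line, median of the list). The cytoplasmic ribosomal protein genes lie at a median of 0.80, the mitochondrial ones at 0.61 and the astrocyte markers at -1.59.

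Repeated sequence was common among the members. In the median member, 51.1% of 50-base windows were found in another annotated gene, with a largest share of 98.6% (Rps27). Members with under 33% repeated windows had a median of 107.9 CPM per kilobase of coding sequence (19 genes, of which Rps4l has no coding length), those of 33 to 67% 83.0 CPM (33 genes) and those of 67% or more 105.9 CPM (28 genes), so the level did not fall step by step with repeated sequence. The median log2 ratios were 0.94, 0.75 and 0.78, with 8, 5 and 7 genes called higher in replicate 1, where 7.76% of all genes were. Across 80 members, or 79 for the level, Spearman's rho of repeated windows was -0.26 with the ratio, and -0.07 with the level per kilobase of coding sequence, as descriptions over genes that share the 2 libraries.

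**Figure D5:**
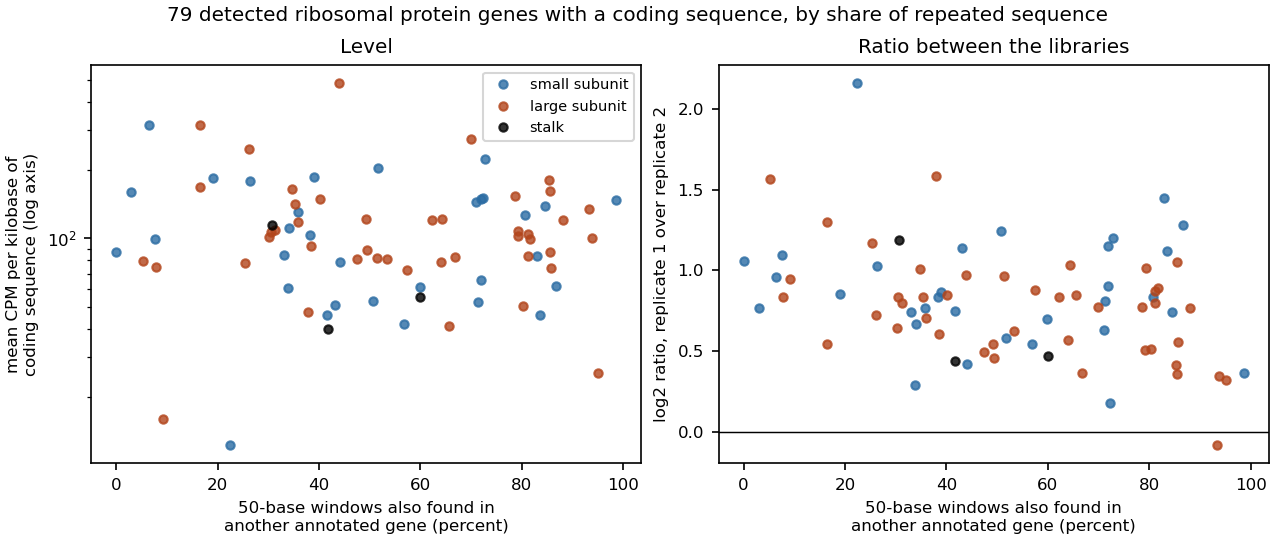
Share of 50-base windows of each detected member that is also found in another annotated gene, against its mean level per kilobase of coding sequence (left, log axis) and its log2 ratio, replicate 1 over replicate 2 (right). Points are genes, coloured by subunit; levels between 12.3 and 481.0 CPM occur without a visible trend.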

How the data were processed

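RNA pulled down with tagged ribosomes was sequenced in 2 libraries of 1 group. The authors deposited raw read counts for each gene symbol. Alignment and counting tools named in the submitters' processing notes are STAR 2.0.0e and HTSeq, with the mouse build mm10. Annotation, strand setting and filters were not given in the sources used here, so reads of overlapping or antisense genes cannot be told apart. The 6 lines without a gene were excluded from totals and tests: 22.8% and 31.0% of reads lay outside features and 1.84% and 2.08% were ambiguous in replicates 1 and 2. CPM was computed from the deposited counts. Library scaling used TMM (edgeR 4.0.16) and, as an alternative, DESeq2 1.42.0; 0.5 reads were added for ratios. Binomial tests used scipy 1.17.1 and were run on simulated counts with Poisson counting error only, the error that the test assumes. That run does not cover spread between libraries beyond counting error. edgeR's quasi-likelihood test could not be used with 1 library on each side. Lengths came from GENCODE M21, matched by symbol (11465 of 12374 detected genes), coding length being the longest annotated coding sequence. Repeated windows were sought in GENCODE transcripts, pseudogenes included, since no genome was used. Promoters came from the RefSeq table (12 motifs searched on both strands: CTTTC, with CTCTTTC, with CTTTCC and with TCTTTC, which contain it, then CTTTT, then TTCCG, then CCGGAAG, then GGAAGT, then TATAAA, then CTTCC, and last ACTTCCG and also CTTCCGG, which contain CTTCC). The members and lists were chosen with earlier results of these data known. Named genes were Rpl10a, the 6 highest and 6 lowest per kilobase of exon, those at 0 reads, the 6 largest ratios past the test, paralog pairs, stalk, 5S and ubiquitin-fusion genes, and leading genes of each list, not all of which are described. Intervals cover counting error only. A few genes that the rules take are not reported here by name.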

Additional observations from a re-analysis of the deposited data

How the results depend on the processing

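No paired analysis was possible because there is only 1 group. The number of members called higher in replicate 1, 20, was 20 or 21 with total reads, DESeq2 size factors, total reads without Rn45s and no filter on low counts, and 17 of 74 at 10 CPM or more. It was 78 by adjusted p alone, where the fold limit is dropped, 9 with the exon length trend removed and 3 with the coding length trend removed (chosen after seeing the data); the median ratio was then 0.37 and 0.35, and 0.79 to 0.84 with the other settings that change it. Of all genes, 8.15% were called higher in replicate 1 with total reads, 7.73% with DESeq2 size factors and 8.36% with total reads without Rn45s. That share was 10.03% with no filter on low counts and 3.52% at 10 CPM or more. The shares of all genes called higher in replicate 2 were 19.58% with no filter and 3.11% at 10 CPM or more. The large minus small subunit difference was 0.31 with the longest transcript, 0.30 without paralogs, 0.24 to 0.36 in single libraries and -0.00086 with coding length (chosen after seeing the data). With the exon length trend removed, log2 ratios turned negative, among others, for Rpl23a (-0.14), Rpl29 (-0.22), Rpl35 (-0.23), Rpl36 (-0.12), Rpl38 (-0.0024), Rplp1 (-0.40), Rps27 (-0.25), Rps3a1 (-0.012), Rps4l (-0.32) and Rps4x (-0.25). With the coding length trend removed they did for Rpl28 (-0.023), Rpl29 (-0.10), Rpl30 (-0.062), Rpl35 (-0.23), Rpl37a (-0.033), Rplp1 (-0.10), Rps14 (-0.20), Rps27 (-0.30), Rps29 (-0.0024) and Rps4x (-0.066). Why length moves with the ratio was not tested. Single libraries gave 80 detected members each, a median level of 32.2 to 58.9 CPM and a share of reads of 0.351 to 0.589%. A count of 0 limits Rpl26 and the 4 unread paralogs to the levels given, and repeated sequence limits every level.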

Other observations

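Genes of the mTOR pathway and of TOP regulation had a median log2 ratio of -0.14, with 10 of 21 above 0, and the difference from the ribosomal protein genes was not tested. Of the 21, 2 were called higher in replicate 1, beside 7.76% of all genes, and 1 higher in replicate 2, beside 9.52%. Over all genes the ratio moved with length, and other genes with a coding sequence of 1500 bases or more had a median of -0.17. Mtor, the kinase itself, had 132.8 CPM in replicate 1 and 222.0 CPM in replicate 2, and Larp1, which binds TOP messages, had 146.6 CPM in replicate 1 and 198.0 CPM in replicate 2. Eif4ebp2, a translation repressor that mTOR phosphorylates, had 93.2 CPM in replicate 1 and 32.3 CPM in replicate 2 and was called higher in replicate 1.

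Small nucleolar RNAs lie inside 30 of the detected members. These host genes had a median of 109.8 CPM per kilobase of coding sequence and a median log2 ratio of 0.77, and the other 50 detected members had 86.7 CPM and 0.84.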
